A study of Mus musculus with 3 samples.

Results

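TRBD1 and TRBD2 are the D genes of the mouse T cell receptor (TCR) beta locus, and the clonotypes described here are those the authors assigned to TRBD1, to TRBD2 or to neither. A clonotype is a group of reads with the same complementarity determining region 3 (CDR3) bases, given with its best matching V and J gene. No TCR beta CDR3 sequence occurred in more than 1 clonotype of a library. Clonotypes of different libraries were taken as the same when CDR3 bases, V gene and J gene were all equal. Every clonotype with a TRBV and a TRBJ gene was grouped by the best matching D gene in the deposited tables, without its allele. TRBD1 was called in 68961 clonotypes, TRBD2 in 56559 and no D gene in 42447, which together are the 167967 TCR beta clonotypes among 168230 of all chains. The other clonotypes, 84 in CD4, 101 in CD8 and 78 in double-negative (DN) T cells, all lacked a D call. The series asked how the TCR repertoires of these subsets compare in a lupus-prone mouse. CD4, CD8 and DN T cells, the last lacking both coreceptors, were sorted from the spleen of 1 MRL.lpr mouse at 16 weeks of age. MRL.lpr mice carry the lpr mutation of the death receptor Fas and accumulate DN T cells, and all 3 subsets shared this genotype. The labels name no treatment. RNA of 1000000 cells of each subset went into a single library per subset.

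A TCR beta chain gene is built in the thymus by joining a D gene to a J gene and then a V gene to the DJ segment, with bases trimmed and added at each joint. The D gene lies at the centre of the CDR3, the loop that contacts the peptide, and it can be read in any of its reading frames. Both D genes are rich in G, so that all frames encode glycine, and the frames differ in the residues around it. TRBD1 lies in front of the TRBJ1 genes and TRBD2 lies behind them and in front of the TRBJ2 genes, so direct joining allows TRBD1 with either J cluster and TRBD2 with TRBJ2.

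The libraries held 133667 TCR beta reads in 44807 clonotypes for CD4, 150874 reads in 81212 for CD8 and 194290 reads in 41948 for DN T cells. The tables hold receptor sequences and no levels of Cd4, Cd8a or other genes, so the sorted subsets could not be checked against markers. With 1 library per subset there was no replicate check, and each test below compares libraries, not conditions. Intervals are 95% intervals and cover counting error only, because reads were made by PCR and no molecular identifiers are named that would count original molecules. The libraries were not free of each other. In all, 11550 clonotypes occurred in more than 1 library, and values without them are given beside the TRBD2 share, tryptophan and the reading frame. For the other tested results, changes of direction or call without them are listed in the closing section. All of these shared clonotypes had the same D call in each library that held them, with 0 that differed.

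The sequences below show what the D calls rest on. Among in-frame clonotypes, the most frequent 10-base word in the middle of TRBD1 CDR3s was GGGACAGGGG, found in 7232 of 64803. In TRBD2 CDR3s it was GACTGGGGGG, found in 12181 of 51804. These words were read from the clonotypes, not from a reference of germline genes, and the middle of a CDR3 means all but its first 9 and last 12 bases. The largest in-frame clonotype of each D group in each library follows, 5′ to 3′, with the longest run of at least 4 bases shared with the word of its gene in capitals.
CD4, TRBD1, TRBV13-2 and TRBJ2-5: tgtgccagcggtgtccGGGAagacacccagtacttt
CD4, TRBD2, TRBV13-2 and TRBJ2-1: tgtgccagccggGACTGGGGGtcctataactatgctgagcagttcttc
CD4, no D, TRBV13-2 and TRBJ1-5: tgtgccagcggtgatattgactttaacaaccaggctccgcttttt
CD8, TRBD1, TRBV17 and TRBJ2-3: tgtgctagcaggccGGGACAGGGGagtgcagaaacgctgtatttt
CD8, TRBD2, TRBV13-1 and TRBJ1-3: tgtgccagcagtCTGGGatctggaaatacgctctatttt
CD8, no D, TRBV17 and TRBJ2-1: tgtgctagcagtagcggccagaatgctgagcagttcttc
DN, TRBD1, TRBV1 and TRBJ2-1: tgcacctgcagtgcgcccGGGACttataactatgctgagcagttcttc
DN, TRBD2, TRBV13-1 and TRBJ2-4: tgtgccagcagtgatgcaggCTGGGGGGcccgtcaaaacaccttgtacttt
DN, no D, TRBV13-1 and TRBJ2-1: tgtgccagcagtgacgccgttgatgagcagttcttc
The runs ranged from 4 bases in the largest TRBD1 clonotype of CD4 T cells to all 10 bases in that of CD8 T cells, so the D calls went with runs of very different length.

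In reads, the largest TRBD2 clonotypes held 1275 reads in the CD4, 3260 in the CD8 and 1374 in the DN library, and the largest TRBD1 clonotypes held 1484, 637 and 1142 reads. The largest clonotypes without D held 357, 284 and 1212 reads, and the one of CD4 T cells was not in frame. The largest clonotype of the CD8 library carried a TRBD2 call on a run of 5 bases and was joined to a TRBJ1 gene, a pairing treated further below. It held 2.16% of CD8 TCR beta reads (2.09 to 2.24%), against 0.0404% in CD4 and 0.0386% in DN T cells. The largest TRBD2 clonotype of DN T cells had 225 reads in CD8 and 62 in CD4 T cells, and the largest clonotype without D in DN T cells had 175 and 57.

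Over all clonotypes, TRBD2 was called more often in DN T cells than in CD8 or CD4 T cells. It was called in 29.5% of clonotypes in the CD4 (29.1 to 30.0%), 32.7% in the CD8 (32.4 to 33.0%) and 40.0% in the DN library (39.5 to 40.5%). The order was reversed for TRBD1, with 44.3% in the CD4, 41.4% in the CD8 and 37.0% in the DN library. DN T cells were the only library in which TRBD2 outnumbered TRBD1, with 16782 against 15520 clonotypes. The TRBD2 share of DN T cells was 1.22 times that of CD8 T cells (1.21 to 1.24, adjusted p = 2.88e-141) and 1.35 times that of CD4 T cells (1.33 to 1.38, adjusted p = 6.87e-230), by two-sided Fisher's exact tests on numbers of clonotypes adjusted over 54 tests. The TRBD2 share of CD4 T cells was 0.903 times that of CD8 T cells (adjusted p = 1.57e-30, Fisher's exact test).

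Clonotypes without a D call made up 26.2% in the CD4, 25.9% in the CD8 and 23.0% in the DN library. The share of DN T cells was 0.886 times that of CD8 T cells (adjusted p = 1.58e-29, Fisher's exact test). CD4 and CD8 T cells did not differ at this threshold, with a ratio of 1.01 (0.990 to 1.03, adjusted p = 0.376, Fisher's exact test). Over reads, TRBD2 held 30.1% in the CD4, 34.4% in the CD8 and 42.3% in the DN library, and 30.5%, 32.9% and 41.9% once the largest clonotype of each library was left out. Among in-frame clonotypes found in a single library, TRBD2 made up 27.9%, 31.4% and 39.8%. Clonotypes out of frame or with a stop codon did not keep this order. Of these, TRBD2 made up 38.1% in the CD4 (36.5 to 39.7%), 45.3% in the CD8 (43.8 to 46.9%) and 43.1% in the DN library (41.5 to 44.6%). By reads it made up 35.3%, 40.4% and 34.2% of them, so DN T cells were not above CD8 T cells. Adding or removing 1 base turned 43.4%, 42.9% and 48.1% of these TRBD2 clonotypes into an in-frame clonotype of equal V and J gene. For TRBD1 the values were 24.0%, 23.0% and 22.3%. Without such clonotypes, TRBD2 numbered 756 in the CD4, 1028 in the CD8 and 840 in the DN library. TRBD1 numbered 1049, 1059 and 1089. This split was chosen after the data were seen. When clonotypes were weighted to the mean V and J gene mix of the 3 libraries, the TRBD2 shares were 31.0%, 32.6% and 38.5%.

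**Figure D1:**
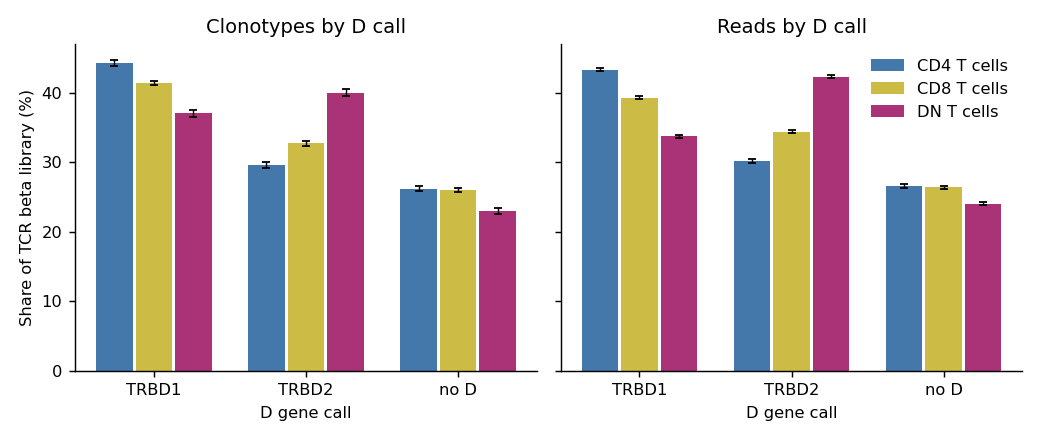
Share of TCR beta clonotypes (left) and reads (right) with a TRBD1 call, a TRBD2 call or no D call in the CD4, CD8 and DN libraries; bars show the percentage of the library and error bars the 95% Wilson interval, with 1 library per subset. TRBD2 was highest in DN T cells (40.0% of clonotypes and 42.3% of reads), and TRBD1 was highest in CD4 T cells (44.3% and 43.3%).

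The larger TRBD2 share of DN T cells was also present among clonotypes of under 100 reads. Among clonotypes with a single read, TRBD2 made up 30.2% in the CD4, 32.8% in the CD8 and 40.1% in the DN library. Among those with at least 10 and under 100 reads it made up 28.5%, 34.3% and 41.1%. Of the 100 largest clonotypes, 40 in the CD4 (30.9 to 49.8%), 37 in the CD8 (28.2 to 46.8%) and 47 in the DN library (37.5 to 56.7%) had TRBD2, and these intervals overlapped.

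TRBD1 was found with both J clusters, and TRBD2 mostly with the TRBJ2 cluster that follows it in the locus. TRBJ1 genes were paired with 49.8% of TRBD1 clonotypes in the CD4, 44.0% in the CD8 and 47.7% in the DN library. They were paired with 6.85% of TRBD2 clonotypes in the CD4 (906 clonotypes), 4.84% in the CD8 (1286) and 4.68% in the DN library (786). The TRBJ1 share of TRBD2 was 0.137, 0.110 and 0.0981 times that of TRBD1 (Fisher's exact test, adjusted p = 1.35e-299 in each library, the smallest value kept). The order of the genes set this direction in advance, so the test is a check on the D calls and not a result about the libraries. Clonotypes without D lay between them and nearer to TRBD1, with 45.6%, 40.9% and 42.2% joined to TRBJ1.

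The TRBD2 clonotypes with a TRBJ1 gene looked unlike the other TRBD2 clonotypes in their bases. A run of at least 8 bases shared with the TRBD2 word was found in 3.77% of them in the CD4, 5.40% in the CD8 and 4.35% in the DN library. TRBD2 clonotypes with a TRBJ2 gene held such a run in 61.1%, 63.4% and 67.0%. The median run was 6 bases with TRBJ1 and 8 bases with TRBJ2 in all 3 libraries. Runs of under 6 bases to either D word were found in 29.1%, 31.8% and 32.7% of TRBD2 clonotypes with TRBJ1, and in 6.83%, 6.21% and 5.63% of those with TRBJ2. Their mean CDR3 length of 13.99, 13.98 and 14.11 residues was near that of TRBD1 with TRBJ1 (14.16, 14.14 and 14.28). These run lengths describe the calls, since the caller used the same bases.

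The largest TRBD2 clonotypes with TRBJ1 are shown for the bases they share with the TRBD2 word. That of CD8 T cells is the 3260-read clonotype printed above, and those of the other libraries had 108 reads in CD4 and 91 in DN T cells.
CD4, TRBD2, TRBV13-1 and TRBJ1-1: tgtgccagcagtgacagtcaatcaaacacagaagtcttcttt
DN, TRBD2, TRBV13-1 and TRBJ1-6: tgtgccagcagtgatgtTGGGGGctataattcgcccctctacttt
The clonotype of CD4 T cells shared no run of 4 bases with the TRBD2 word, and that of DN T cells shared 6 bases. By reads, the TRBJ1 share of TRBD2 was 5.54% in the CD4, 10.4% in the CD8 and 3.21% in the DN library. Without the largest clonotype with TRBJ1 the CD8 value was 4.42%. Leaving out all TRBD2 clonotypes with TRBJ1 changed the ratio of DN over CD8 T cells in TRBD2 share from 1.22 to 1.23. CDR3s with a 6-base word of both D genes, ACAGGG and ACTGGG, numbered 16 in the CD4, 55 in the CD8 and 32 in the DN library.

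Within the TRBJ2 cluster, where both D genes can be used, the libraries kept the same order. TRBD2 made up 55.3% of TRBJ2 clonotypes with a D call in the CD4, 57.3% in the CD8 and 66.4% in the DN library. The share of DN T cells was 1.16 times that of CD8 T cells (1.14 to 1.17, adjusted p = 2.96e-118) and 1.20 times that of CD4 T cells (1.18 to 1.22, adjusted p = 3.87e-130, Fisher's exact tests). Single J genes were compared over all clonotypes of the gene. In DN T cells TRBJ2-1 had the highest TRBD2 share, 55.8%, against 46.4% in CD4 and 46.2% in CD8 T cells. TRBJ2-7 followed at 55.4%, with an overlapping interval. TRBJ2-2 had the lowest, 42.7%, against 32.8% and 32.7%. TRBJ2-6, a pseudogene in the RefSeq gene list, appeared in 1 CD8 and 1 DN clonotype, both without a D call, and was left out of this order. In the TRBJ1 cluster the TRBD2 share of DN T cells ran from 5.06% with TRBJ1-6 to 7.45% with TRBJ1-1.

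The V gene joined to the D gene went with large differences in the TRBD2 share. Among 16 V genes with at least 100 TRBJ2 clonotypes with a D call in every library, TRBV4 and TRBV31 had the highest mean TRBD2 share over the libraries, 70.1% and 69.6%. TRBV29 and TRBV26 had the lowest, 34.0% and 43.3%. TRBV31 is the V gene that lies behind the D and J genes and is joined by inversion. TRBV4 had TRBD2 in 61.3% of these clonotypes in the CD4, 73.2% in the CD8 and 75.8% in the DN library. TRBV31 had 65.1%, 68.9% and 74.6%, TRBV29 had 32.7%, 31.7% and 37.4%, and TRBV26 had 34.4%, 45.4% and 50.0%. The TRBD2 share was higher in DN than in CD8 T cells in 16 of the 16 V genes and higher in DN than in CD4 T cells in 16, while CD8 was above CD4 T cells in 14. The intervals of all 3 libraries overlapped in TRBV3, TRBV29 and TRBV30. Those of DN and CD8 T cells also overlapped in TRBV2, TRBV4, TRBV20 and TRBV26, and those of DN and CD4 T cells in TRBV14. TRBV26, low in TRBD2, was high in clonotypes without D, with 36.8%, 39.7% and 36.7%, whereas TRBV4 had 19.7%, 17.8% and 15.2%.

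**Figure D2:**
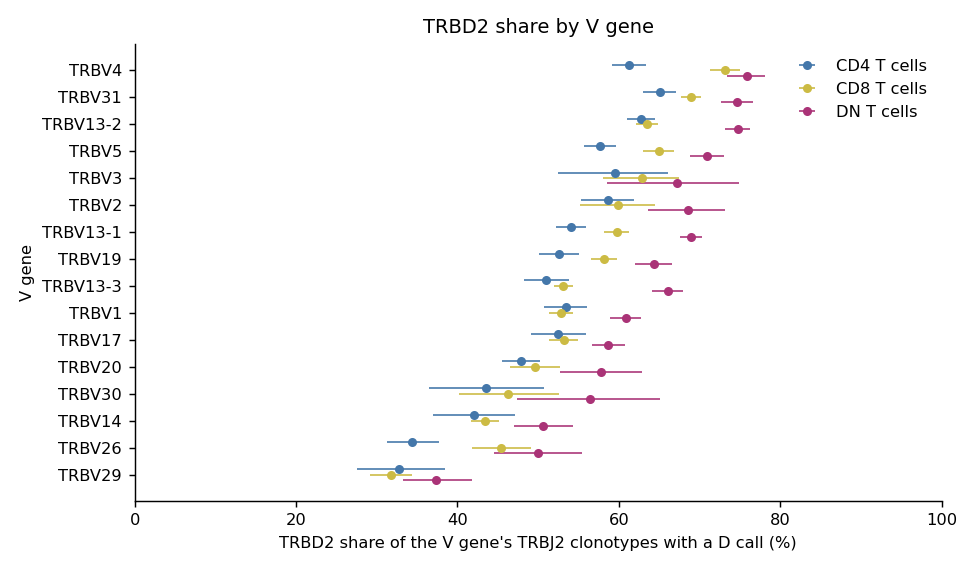
TRBD2 share of TRBJ2 clonotypes with a D call for each of the 16 V genes with at least 100 such clonotypes in every library; points are the CD4, CD8 and DN libraries and lines their 95% Wilson intervals. The V genes run from TRBV29 (34.0% averaged over the libraries) to TRBV4 (70.1%), and the DN point lies right of the CD8 and CD4 points in all 16.

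CDR3s were longest with TRBD2 and shortest without a D call. Over in-frame clonotypes, TRBD2 CDR3s had a mean of 14.5 residues in the CD4 (SD 1.40), 14.5 in the CD8 (SD 1.39) and 14.8 in the DN library (SD 1.34). TRBD1 CDR3s had a mean of 14.02, 13.99 and 14.18, and CDR3s without D had 13.1, 13.1 and 13.3. TRBD2 was longer than TRBD1 by 0.504 residues in the CD4, 0.535 in the CD8 and 0.592 in the DN library. These differences pool both J clusters, which the D genes used unequally. With TRBJ2 genes alone, mean lengths were 14.57, 14.56 and 14.80 for TRBD2 and 13.89, 13.88 and 14.09 for TRBD1. CDR3s without D differed from TRBD1 by -0.949, -0.942 and -0.859 residues. No test was applied to these differences, because the D call rests on the bases of the CDR3 itself. All D groups had their highest mean length in DN T cells.

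Length and D call were closely tied within each library. Of CDR3s with 12 residues, 49.7% in the CD4, 47.3% in the CD8 and 45.9% in the DN library had no D call. Of CDR3s with 17 residues, 58.2%, 63.3% and 66.7% had TRBD2 and 4.11%, 4.10% and 5.07% had no D call. At a fixed length of 14 residues TRBD2 was called in 28.7%, 32.0% and 37.6%, so the order of the libraries was also present among CDR3s of equal length. CDR3s with 16 or more residues made up 21.5%, 23.0% and 28.3% of TRBD2 clonotypes, and 2.97%, 3.35% and 5.86% of clonotypes without D.

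**Figure D3:**
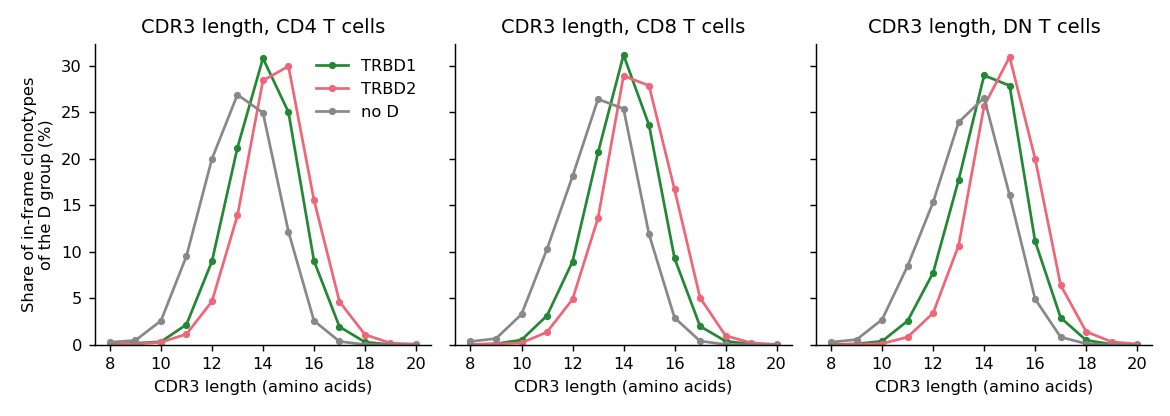
CDR3 length in amino acids against the share of in-frame clonotypes of each D group, with 1 panel per library and lengths of 8 to 20 residues shown. In each panel the curve without D lies to the left, TRBD1 in the middle (means 14.02, 13.99 and 14.18) and TRBD2 to the right (means 14.5, 14.5 and 14.8).

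Central residues were read from in-frame CDR3s after removing the first 4 and last 5 residues, which come mostly from the V and J genes. Differences between D groups in these residues partly follow from the D call, which uses the same bases, and only libraries were tested against each other. The presence of glycine followed the D call and differed less between libraries than between D groups. It was present in 94.5% of TRBD2 clonotypes in the CD4, 94.5% in the CD8 and 93.6% in the DN library. TRBD1 clonotypes held it in 84.8%, 83.6% and 81.2%, and clonotypes without D in 44.7%, 44.2% and 42.9%. TRBD2 also gave more glycines in a row, with 2 adjacent glycines in 53.7%, 50.5% and 43.6% of its clonotypes against 16.9%, 16.9% and 14.7% with TRBD1. The ratios of DN over CD8 T cells for central glycine were 0.971 in TRBD1 (adjusted p = 5.10e-10) and 0.990 in TRBD2 (adjusted p = 8.63e-05, Fisher's exact tests). In clonotypes without D the ratio was 0.971, which missed the threshold (adjusted p = 0.0517, Fisher's exact test). The ratios of DN over CD4 T cells were 0.957 in TRBD1 (adjusted p = 9.30e-18) and 0.990 in TRBD2 (adjusted p = 0.00126, Fisher's exact tests). Without D the ratio of DN over CD4 T cells was 0.961 (adjusted p = 0.0180, Fisher's exact test).

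Central tryptophan was largely a feature of TRBD2 clonotypes, and it was more frequent in DN T cells. It was present in 32.7% of TRBD2 clonotypes in the CD4 (31.8 to 33.5%), 37.6% in the CD8 (37.0 to 38.2%) and 55.9% in the DN library (55.1 to 56.7%). The DN share was 1.48 times that of CD8 T cells (1.45 to 1.52, adjusted p = 1.18e-275) and 1.71 times that of CD4 T cells (1.66 to 1.76, adjusted p = 1.35e-299, the smallest value kept), by Fisher's exact tests. CD4 T cells had 0.868 times the share of CD8 T cells (adjusted p = 3.02e-20, Fisher's exact test).

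The other D groups had far less tryptophan and the same order of libraries. In TRBD1 clonotypes the share was 3.43% in the CD4, 4.57% in the CD8 and 8.32% in the DN library, with a ratio of DN over CD8 T cells of 1.82 (adjusted p = 2.67e-53, Fisher's exact test). In clonotypes without D it was 4.69%, 5.43% and 10.6%, with a ratio of 1.95 (adjusted p = 9.91e-51, Fisher's exact tests). Some clonotypes without a call still held 8 bases of the TRBD2 word, namely 2.20%, 2.54% and 3.39% of those with a TRBJ2 gene. Tryptophan in clonotypes without D was more frequent with TRBJ2, at 6.92%, 7.35% and 14.6%, than with TRBJ1, at 2.13%, 2.73% and 5.20%.

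**Figure D4:**
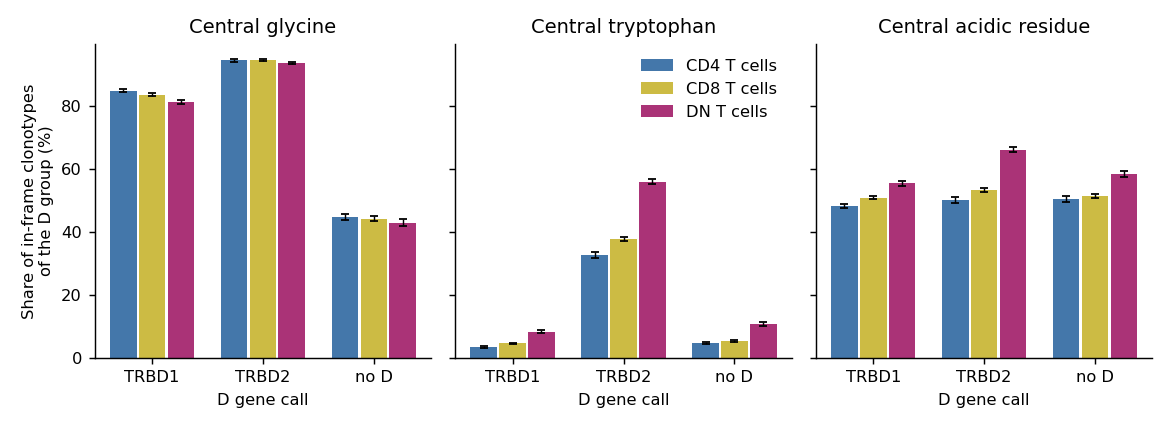
Share of in-frame clonotypes with at least 1 central glycine, tryptophan or acidic residue (aspartate or glutamate), by D call and library; bars are percentages of the D group and error bars 95% Wilson intervals. Glycine separates the D groups (94.5% with TRBD2 and 44.2% without D in CD8 T cells), and tryptophan separates DN (55.9%) from CD8 (37.6%) and CD4 T cells (32.7%) within TRBD2.

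The higher tryptophan share of DN T cells was seen across V and J genes and lengths. With at least 10 and under 100 reads, and with at least 100, the DN share was still the highest. Its interval there overlapped that of CD8 T cells. Among 14 V genes with at least 100 in-frame TRBD2 clonotypes in every library, DN exceeded CD8 T cells in 14 and CD4 T cells in 14, and CD8 exceeded CD4 T cells in 11. The DN interval overlapped those of both other libraries in TRBV29 and that of CD4 T cells in TRBV14. The shares of single V genes ran from 23.0% to 37.2% in the CD4, from 25.6% to 55.2% in the CD8 and from 38.9% to 65.5% in the DN library. Among the 6 TRBJ2 genes they ran from 31.8% to 36.3%, from 37.2% to 39.6% and from 54.1% to 60.0%, so that the ranges of the libraries did not overlap. At 14 residues tryptophan was present in 30.8%, 36.6% and 55.6% of TRBD2 clonotypes, and at 17 residues in 38.4%, 39.3% and 60.8%.

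Among TRBD2 clonotypes with at least 10 and under 100 reads, tryptophan was found in 28.3% in the CD4 (24.4 to 32.5%), 55.4% in the CD8 (49.8 to 60.9%) and 60.2% in the DN library (57.2 to 63.1%). In CD8 T cells this was above the 36.1% of clonotypes with a single read, whereas in DN T cells the single-read share was 54.3%. At this size the intervals of CD8 and DN T cells overlapped. With at least 100 reads, tryptophan was found in 13 of 31 in-frame TRBD2 clonotypes in the CD4 (26.4 to 59.2%), 5 of 11 in the CD8 (21.3 to 72.0%) and 53 of 87 in the DN library (50.4 to 70.5%). Within the 100 largest clonotypes of each library, tryptophan was present in 18 of 39, 15 of 35 and 25 of 47 in-frame TRBD2 clonotypes, or 46.2%, 42.9% and 53.2%, and all 3 intervals overlapped.

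Sharing between libraries went the same way. Tryptophan was present in 58.3% of the 2216 in-frame TRBD2 clonotypes found in CD8 and DN T cells only, and in 59.5% of the 754 found in all 3 libraries. It was present in 52.1% of those in CD4 and DN T cells only and in 32.0% of those in CD4 and CD8 T cells only. Among clonotypes of a single library it was present in 29.4% in the CD4, 34.8% in the CD8 and 55.4% in the DN library. Clonotypes present in DN T cells thus had shares above 50%, with or without a second library. Without clonotypes found in another library, the ratio of DN over CD8 T cells was 1.59.

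The tryptophan in TRBD2 clonotypes came with the residues of a particular reading frame of the gene. Glycine followed the tryptophan directly in 85.7% of these clonotypes in the CD4, 85.9% in the CD8 and 86.8% in the DN library, and aspartate preceded it in 56.9%, 61.3% and 63.6%. The motif DWG (aspartate, tryptophan, glycine), which TRBD2 encodes in this frame, was present in 16.0% of TRBD2 clonotypes in the CD4, 20.01% in the CD8 and 30.8% in the DN library. The motif GLG (glycine, leucine, glycine) of another TRBD2 frame was present in 9.10%, 10.2% and 8.15%, and GTG, which either gene can encode, in 6.51%, 7.01% and 4.17%. In TRBD1 clonotypes DWG was found in 0.234%, 0.387% and 0.855%. The TRBD1 motif DRG was found in 7.51%, 7.65% and 9.68% of TRBD1 clonotypes, GQG in 7.43%, 7.27% and 5.86%, and GTG in 7.33%, 9.06% and 6.88%.

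A further pair of clonotypes carries the DWG motif and was chosen after its values were seen, as the largest of their kind in each library. The capitals again mark the run shared with the TRBD2 word.
CD8, TRBD2, TRBV31 and TRBJ2-7: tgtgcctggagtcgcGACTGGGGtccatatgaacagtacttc
DN, TRBD2, TRBV13-3 and TRBJ2-3: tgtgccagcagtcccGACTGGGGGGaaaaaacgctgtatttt
The CD8 clonotype had 148 reads in CD8, 495 in DN and 24 in CD4 T cells, and the DN clonotype had 583 reads in DN, 65 in CD8 and 15 in CD4 T cells. In both, the capitals start in frame and are read as aspartate, tryptophan and glycine. The largest TRBD2 clonotype of CD4 T cells, printed above, holds the same motif.

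The reading frame was then counted in clonotypes that hold an 8-base word of the gene, ACTGGGGG for TRBD2 and GGACAGGG for TRBD1. TRBD2 was read as tryptophan and glycine in 39.0% of 4730 in-frame CD4 clonotypes with the word, in 45.2% of 10457 in CD8 and in 63.4% of 6973 in DN T cells. The frame of threonine and glycine made up 31.3%, 26.0% and 14.4%, and that of leucine and glycine 29.6%, 28.9% and 22.2%. Among in-frame clonotypes with the word, the tryptophan frame was thus the most frequent in each library, and in DN T cells it was used by most of them. The word was held by 46.0% of in-frame DN TRBD2 clonotypes. Among clonotypes with at least 10 reads it made up 35.8% of 218 in the CD4 (29.7 to 42.3%), 66.2% of 157 in the CD8 (58.5 to 73.2%) and 65.6% of 579 in the DN library (61.7 to 69.4%), so that CD8 T cells were no longer below DN T cells. Counting clonotypes of all sizes found in a single library, the tryptophan frame made up 34.6%, 41.8% and 63.1%. In CD4 T cells the frame of threonine and glycine made up the same 34.6% of these. TRBD1 differed less, and its frame of aspartate and arginine made up 30.1% in the CD4, 29.3% in the CD8 and 40.5% in the DN library.

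Clonotypes that are out of frame or hold a stop codon give no beta chain, and they give the frame of the D word for comparison. Their TRBD2 word lay in the tryptophan frame, counted from the first CDR3 base, in 35.8% of 567 clonotypes in the CD4 (32.0 to 39.8%), 44.1% of 866 in the CD8 (40.8 to 47.4%) and 55.8% of 736 in the DN library (52.2 to 59.4%). A large part of these clonotypes, 43.4%, 42.9% and 48.1% of the nonproductive TRBD2 clonotypes, became an in-frame clonotype of the same V and J gene by adding or removing 1 base. In this subset the tryptophan frame made up 37.2%, 50.4% and 62.3%. In the remaining clonotypes it made up 34.5% of 290 in the CD4 (29.2 to 40.1%), 38.7% of 463 in the CD8 (34.3 to 43.2%) and 47.5% of 322 in the DN library (42.1 to 53.0%). The split by 1 base was chosen after the data were seen. In the remaining clonotypes the intervals of DN and CD8 T cells overlapped. Over all nonproductive clonotypes with at least 2 reads, the tryptophan frame made up 35.7% of 115 in the CD4 library (27.5 to 44.7%). It made up 45.8% of 107 in the CD8 (36.7 to 55.2%) and 50.3% of 169 in the DN library (42.8 to 57.7%). The gap between DN and CD4 T cells was thus smaller in nonproductive clonotypes than in in-frame clonotypes, and this difference was not tested.

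**Figure D5:**
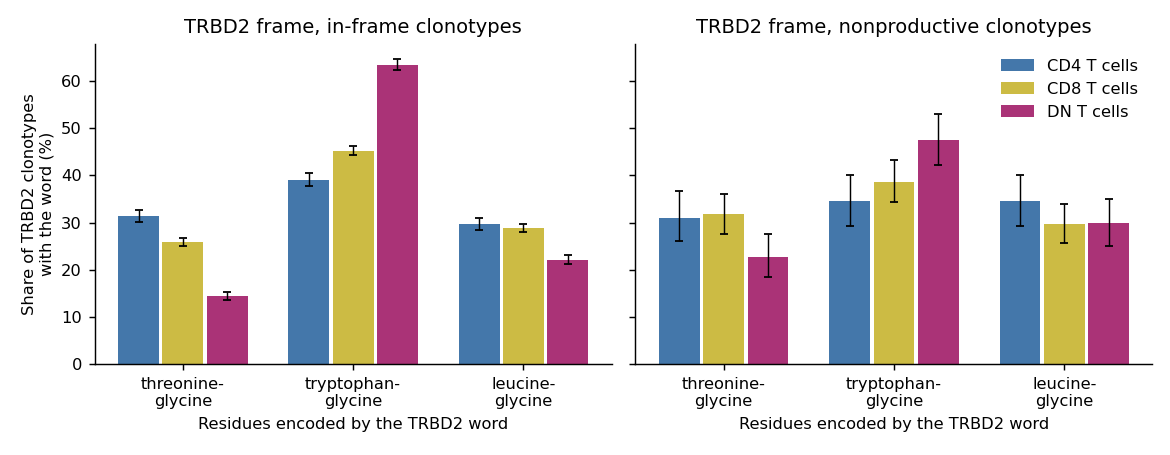
Reading frame of TRBD2, named by the residues its 8-base word encodes, in in-frame clonotypes (left) and in nonproductive clonotypes that no single inserted or deleted base turns into an in-frame clonotype (right); bars are percentages of TRBD2 clonotypes with the word and error bars 95% Wilson intervals. The tryptophan-glycine frame made up 39.0%, 45.2% and 63.4% on the left and 34.5%, 38.7% and 47.5% on the right in CD4, CD8 and DN T cells.

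Acidic residues were more frequent in the central part of DN CDR3s, most of all with TRBD2. At least 1 central aspartate or glutamate was present in 50.1% of TRBD2 clonotypes in the CD4, 53.4% in the CD8 and 66.0% in the DN library, a ratio of DN over CD8 T cells of 1.24 (1.22 to 1.26, adjusted p = 1.80e-136, Fisher's exact test). The shares were 48.2%, 50.8% and 55.4% in TRBD1 clonotypes and 50.3%, 51.4% and 58.3% in those without D, with ratios of 1.09 (adjusted p = 3.98e-19) and 1.14 (adjusted p = 9.23e-27, Fisher's exact tests). In the 3 middle residues alone the ratio without D was 1.0024 and was not called (adjusted p = 0.901, Fisher's exact test). Aspartate made up most of these, being present in 58.1% of DN TRBD2 clonotypes against 15.2% for glutamate.

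In TRBD2 the acidic residue went with the tryptophan. It was present in 76.1%, 77.6% and 83.1% of TRBD2 clonotypes with tryptophan, and in 37.4%, 38.8% and 44.4% of those without. The acidic share also went with the V gene. TRBV13-1, TRBV13-2 and TRBV13-3 had aspartate or glutamate at the fifth CDR3 residue in 62.0%, 69.8% and 52.0% of DN TRBD2 clonotypes, a position near the end of the V gene. These shares were 63.7%, 71.9% and 52.1% in CD8 and 55.2%, 64.5% and 47.4% in CD4 T cells. In TRBV2, 79.9% of DN TRBD2 clonotypes held a central acidic residue, and 0.437% held one at the fifth residue. Removing 5 residues at the start and 6 at the end leaves the fifth residue out, but the mix of V genes stays unequal. The acidic ratio of DN over CD8 T cells was then 1.36 in TRBD2, 1.11 in TRBD1 and 1.17 without D. When V genes were weighted to their mean mix, the ratio of DN over CD8 T cells was 1.14 in TRBD2, 1.02 in TRBD1 and 1.03 without D, while the tryptophan ratio in TRBD2 was 1.43.

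The share of clonotypes with a single read differed little between the D groups, while mean reads differed more, most of all in DN T cells. A single read supported 63.4% of TRBD2 clonotypes in the CD4, 69.3% in the CD8 and 56.5% in the DN library, and 62.1%, 69.7% and 56.7% of TRBD1 clonotypes. The ratios of TRBD2 to TRBD1 were 1.02 in the CD4 (adjusted p = 0.0145), 0.995 in the CD8 (0.984 to 1.01, adjusted p = 0.350) and 0.996 in the DN library (0.978 to 1.02, adjusted p = 0.733, Fisher's exact tests). Among in-frame clonotypes alone the CD4 ratio was 1.01 and missed the threshold (adjusted p = 0.288), while the CD8 ratio of 0.982 (adjusted p = 0.00249) and the DN ratio of 0.978 (adjusted p = 0.0400) passed it the other way (Fisher's exact tests). Clonotypes without D had single reads in 60.5%, 67.4% and 55.9%, and the ratios to TRBD1 were 0.975 (adjusted p = 0.00744), 0.967 (adjusted p = 2.52e-08) and 0.985 (adjusted p = 0.205, Fisher's exact tests). In frame, the CD4 ratio without D was 0.983 and missed the threshold (adjusted p = 0.0890, Fisher's exact test). Mean reads per clonotype were 3.04 in the CD4, 1.95 in the CD8 and 4.89 in the DN library for TRBD2, and 2.92, 1.76 and 4.22 for TRBD1. Clonotypes without D had means of 3.03, 1.89 and 4.84, and no test was applied to mean reads. Without the largest clonotype of each group the means were 2.95, 1.83 and 4.81 for TRBD2, 2.84, 1.74 and 4.15 for TRBD1, and 2.995, 1.87 and 4.71 without D.

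TRBD2 clonotypes were shared with another library more often than TRBD1 clonotypes in CD4 and CD8 T cells. The same CDR3 bases, V gene and J gene were found in another library for 14.7% of TRBD2 and 10.8% of TRBD1 clonotypes in CD4 T cells, a ratio of 1.37 (1.29 to 1.45, adjusted p = 7.16e-26, Fisher's exact test). In CD8 T cells the shares were 13.5% and 10.6%, a ratio of 1.27 (1.22 to 1.33, adjusted p = 1.12e-26, Fisher's exact test). In DN T cells they were 22.3% and 22.5%, a ratio of 0.987 (0.948 to 1.03, adjusted p = 0.560, Fisher's exact tests). Clonotypes without D exceeded TRBD1 in all 3 libraries, with 13.9%, 12.2% and 24.4% and ratios of 1.29 (adjusted p = 1.21e-15), 1.15 (adjusted p = 1.30e-08) and 1.08 (adjusted p = 0.000889, Fisher's exact tests). Among clonotypes with at least 2 reads the ratio was 1.05 in the CD8 (adjusted p = 0.275) and 1.04 in the DN library (adjusted p = 0.303), and neither passed Fisher's exact test. At 42 bases it was 1.03 in the DN library (adjusted p = 0.472, Fisher's exact test).

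The D make-up of shared clonotypes differed with the libraries that held them. TRBD2 made up 40.0% of the 1937 clonotypes in all 3 libraries, 39.4% of the 5835 in CD8 and DN T cells only and 36.5% of the 1817 in CD4 and DN T cells only. It made up 26.1% of the 1961 in CD4 and CD8 T cells only, of which 35.1% had no D call and whose mean CDR3 length was 13.5 residues. In CD8 T cells, 11.6% of TRBD2 and 8.37% of TRBD1 clonotypes were also in DN T cells, and 4.84% and 4.32% were also in CD4 T cells. Among CDR3s of 42 bases alone, the ratio of TRBD2 to TRBD1 was 1.48 in the CD4, 1.31 in the CD8 and 1.06 in the DN library, the last with an adjusted p of 0.188 by Fisher's exact test. Counted by amino acid sequence, the DN ratio was 1.09 (adjusted p = 4.38e-07, Fisher's exact test).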

How the data were processed

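The data were 3 TCR libraries, 1 each of CD4, CD8 and DN T cells of 1 mouse, made with the Takara SMARTer Mouse TCRα/β kit. Alignment, assembly and export were run by the authors in MiXCR, whose version, settings and reference genes are not given in the sources used here. The deposited tables give each clonotype's count of reads, not normalized, and the deposited fraction, which equalled that count divided by the table's total. There were 0 columns of other samples. TCR beta totals were 133667, 150874 and 194290 reads, so 3 counts correspond to 0.00224%, 0.00199% and 0.00154%.

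Each distinct clonotype was counted once. Shares have 95% Wilson intervals. Libraries were compared by the ratio of shares and two-sided Fisher's exact tests on clonotype numbers, with Benjamini-Hochberg adjustment over 54 tests, of which 45 passed 0.05, and p-values under 1e-300 were set to it. The 54 tests include those of the TRBJ1 share of TRBD2 against TRBD1, whose direction the gene order set in advance. CDR3 length was not tested. Central residues needed in-frame CDR3s without stop codon and at least 2 residues left. The D words were the most frequent words of 8 and 10 bases of each D group.

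Named items were the J genes with the highest and lowest TRBD2 share in DN T cells per cluster, the V genes with the 2 highest and 2 lowest mean shares among those with at least 100 clonotypes, the largest in-frame clonotype of each D group, the largest TRBD2 clonotype with TRBJ1, and the motifs GTG, DRG, GQG, DWG and GLG. Members and lists were chosen with earlier results of these data known. Gene order came from the RefSeq gene list of GRCm38.p6. On simulated data with D labels drawn at known rates, 27 of 27 quantities were recovered within 20%, with a largest error of 11.4%. These were D shares, tryptophan, TRBJ1 shares and lengths. The simulation checks the counting only, and not D calls, glycine, acidic residues, reading frames, single reads or sharing. Alternatives covered reads, frame, shared and near-identical clonotypes (1 mismatch, at least 10 times the reads), depth, the residues removed, length and gene mix. The analysis ran in Python 3.11.15 with pandas 2.3.3, NumPy 2.4.6, matplotlib 3.10.9 and SciPy 1.17.1.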

Additional observations from a re-analysis of the deposited data

Results flagged for a closer look

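For 2 quantities the ratio of TRBD2 to TRBD1 fell on different sides of 1 in different libraries, but no ratio below 1 passed Fisher's exact test over all clonotypes, so no opposite direction was shown, and the difference between libraries was not tested. The share of clonotypes found in another library was higher with TRBD2 than with TRBD1 in the CD4 (ratio 1.37) and CD8 library (1.27), against a ratio of 0.987 (0.948 to 1.03) for the DN library, which was above 1 by reads (1.06), in frame (1.01), at 42 bases (1.06) and by amino acid sequence (1.09). The share of clonotypes with a single read had a ratio of 1.02 in the CD4, 0.995 in the CD8 (0.984 to 1.01) and 0.996 in the DN library (0.978 to 1.02).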

How the results depend on the processing

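With 1 library per subset, no library could be left out, the mouse was not replicated, and MiXCR's threshold for a D call was not varied. Of 456 values recomputed, 359 had the direction and the call of the reported value or, where no test was made, stayed within its interval. The higher TRBD2 share of DN T cells kept its direction in 8 of 8 alternatives, from 1.18 to 1.26 times that of CD8 T cells, and the higher tryptophan share in TRBD2 in 9 of 9, from 1.41 to 1.59. Leaving out TRBD2 with TRBJ1 changed no direction or call. At equal depth, glycine without D, DN over CD4, was 0.966 and lost its call. The cause was not tested for any value below.

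Weighting by reads, which gave no test, moved the shares of TRBD1 (DN over CD8 0.859, DN over CD4 0.779, CD4 over CD8 1.10), TRBD2 (DN over CD4 1.40, CD4 over CD8 0.877) and no D (DN over CD8 0.911, DN over CD4 0.904). The TRBJ1 share of TRBD2 over TRBD1 moved to 0.122, 0.253 and 0.0729 in the CD4, CD8 and DN library, and TRBD2 within TRBJ2 to 1.20 (DN over CD8) and 1.25 (DN over CD4). By reads, glycine was 0.934, 0.930 and 1.0049 in TRBD1 (DN over CD8, DN over CD4, CD4 over CD8) and 0.920 and 0.927 without D (DN over CD8, DN over CD4). Tryptophan was 2.02, 3.22 and 0.626 in TRBD1 in the same order, 1.57 and 0.931 in TRBD2 (DN over CD4, CD4 over CD8) and 1.98 and 0.965 without D (likewise). Acidic residues were 1.28 and 1.27 in TRBD2 and 1.20 and 1.22 without D (DN over CD8, DN over CD4), and 1.14 in TRBD1 (DN over CD8), while CD4 over CD8 reversed to 1.0001 in TRBD1 and 1.0049 in TRBD2. Sharing of TRBD2 over TRBD1 was 1.19, 1.47 and 1.06 in the CD4, CD8 and DN library, and of no D over TRBD1 1.07 in CD4. Lengths weighted by reads differed from TRBD1 by 0.633 in CD4 and 0.455 in CD8 for TRBD2, and by -0.891, -1.02 and -0.919 in CD4, CD8 and DN T cells without D.

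Weighting to the mean V and J mix, chosen after the data were seen, moved TRBD1 to 0.926 and 0.873 (DN over CD8, DN over CD4), TRBD2 to 1.18, 1.24 and 0.952 (then CD4 over CD8) and no D to 0.922 and 0.965 (DN over CD4, CD4 over CD8). Weighting to the mean V mix, likewise chosen later, moved tryptophan in TRBD2 to 1.43 (DN over CD8) and 0.835 (CD4 over CD8), and acidic residues to 1.02 and 1.09 in TRBD1 (DN over CD8, DN over CD4), 1.14, 1.27 and 0.895 in TRBD2 and 1.03, 1.09 and 0.944 without D (then CD4 over CD8).

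With at least 2 reads, calls were lost for glycine without D (DN over CD4 0.954), tryptophan without D (CD4 over CD8 0.855), acidic residues in TRBD1 (CD4 over CD8 0.973) and sharing of no D over TRBD1 (1.05 in CD8, 1.04 in DN T cells), and the length differences without D moved to -0.982 in CD4 and -0.996 in CD8. In-frame clonotypes alone lost the single-read calls in CD4 T cells (TRBD2 over TRBD1 1.01, no D over TRBD1 0.983), gained those of TRBD2 over TRBD1 in CD8 (0.982) and DN T cells (0.978), and turned its sharing in DN T cells to 1.01. Without clonotypes found in another library, CD4 over CD8 reversed to 0.9995 for the share without D and 1.0010 for glycine in TRBD2, acidic residues without D were called (CD4 over CD8 0.972), and single reads of TRBD2 over TRBD1 in CD8 T cells reversed to 1.01. Merging near-identical clonotypes turned glycine in TRBD2, CD4 over CD8, to 1.0001.

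Removing 5 residues at the start and 6 at the end reversed glycine in TRBD2 (CD4 over CD8 1.01, called) and without D (DN over CD8 1.0034, DN over CD4 1.04, CD4 over CD8 0.968) and gave a call for acidic residues without D (CD4 over CD8 0.938). The 3 middle residues reversed glycine, CD4 over CD8, in TRBD2 (1.0021) and without D (0.968, called), called it without D for DN over CD8 (0.940) and not for DN over CD4 (0.972), and for acidic residues without D gave 1.0024 with no call (DN over CD8) and 0.926 with a call (CD4 over CD8). At 14 residues, glycine in TRBD1 (CD4 over CD8 1.0056) and tryptophan without D (CD4 over CD8 0.841) lost their calls, and glycine without D gained it (DN over CD8 0.931). In DN T cells the sharing of TRBD2 over TRBD1 reversed to 1.06 at 42 bases and 1.09 by amino acid sequence, where it was called, and that of no D over TRBD1 lost its call at 42 bases (1.03). Mean reads per clonotype in place of single reads gave TRBD2 over TRBD1 ratios of 1.04 in CD4, the reverse of its higher single-read share, 1.11 in CD8 and 1.16 in DN T cells, and no D over TRBD1 ratios of 1.07 in CD8 and 1.15 in DN T cells.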
